A study of Arabidopsis thaliana with 20 samples.

Results

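The transcripts described here are the 30 probe sets, of 22746 on an Affymetrix Arabidopsis thaliana array, whose signal, divided by the median of its array, was lower with dexamethasone (DEX) in every same-numbered pair of samples from seedlings with an inducible VND7 fusion. A probe set was taken if its DEX-minus-control difference was below 0 in all 5 pairs, if the mean difference was -0.3 or lower on the natural log scale of the deposited values (a signal at least 25.9% lower, or -0.43 in log2), and if its mean over the 20 arrays lay above the array median, which is 0 on that scale. In all, 33 probe sets met these conditions. A UDP-glycosyltransferase gene and 2 genes set aside by name, AT5G64100 and AT1G14550, were left out, and 0 of the named probe sets that met the conditions belonged to a cytochrome P450 or a plastid gene. Of the 30 probe sets 18 are paired with 1 gene, and the other 12 carry no gene name here, so that their families could not be checked.

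The study used whole 10-day-old seedlings of 2 lines, each homozygous for a single insertion. The VND7 line carries 35S:VND7-VP16-GR (given as 35S:VND-VP16-GR:NOS in the genotype field), a fusion of VND7, the activation domain of VP16 and the glucocorticoid receptor domain GR, driven by the 35S promoter, which is active in most tissues. The empty-vector line carries 35S:VP16-GR:NOS, the same parts without VND7. Seedlings of both lines were in cycloheximide (CHX) for 6 h, and in each line 5 samples had DEX for the last 4 h while 5 had CHX alone. DEX arrays below means DEX with CHX, and CHX arrays means CHX alone. The labels give the concentration of both compounds as 10 µM in the protocol and as 10 mM in other fields. Whether the 5 replicates of a group were grown separately is not said in the labels, and p-values therefore reflect sample-to-sample spread that could be technical.

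VND7 is a NAC transcription factor that switches on the making of xylem vessels, in which cells lay down a thick secondary wall and then die. A protein fused to the GR domain stays outside the nucleus until DEX binds it, and CHX blocks protein synthesis, so the design looks for transcripts that respond without new protein being made. VP16 is an activation domain, and the genes sought were those that rise. The transcripts below are the other side of the same comparison. They are described by their signals in the VND7 line and by what DEX did to them in the empty-vector line. Every VND7 pair took part in their choice. A left-out VND7 pair was therefore read for other sets, chosen without it, which are not the members but hold many of them.

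Signals are MAS5 signals recovered from the deposited log values, and the array medians were 159.7 to 186 on that scale. Differences, tests and statements on pairs or overlap use the values divided by these medians unless undivided signals are named, so they can depart slightly from the signals printed. Of the 150 VND7 pairs of the members 2 were higher with DEX in undivided signal, replicate 1 of AT4G25260 and replicate 2 of an unnamed probe set. All 30 were transcripts of moderate signal. Their means over the 20 arrays ran from 211 to 853, with a median of 346, while the median over the 11367 probe sets above the same level was 559. No sample total or read depth exists for arrays, and the number of arrays limits the precision. Since whole seedlings were measured, a lower signal from fewer cells of a type and one from less RNA per cell cannot be told apart.

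The differences that chose the members were small. The mean difference in the VND7 line ran from -0.75 to -0.44 in log2 over the 30, with a median of -0.51, and 0 of them were lower by as much as 2-fold. These values chose the members and are given without a test. The 3 members nearest the limit were XTH32 at -0.45 and unnamed probe sets at -0.46 and -0.44. The 3 nearest outside it, all unnamed, were at -0.43. The 33 probe sets make up 0.29% of the 11367 above the level limit, while the same conditions with the signs turned were met by 162, or 1.43%. In the empty-vector line the same conditions were met by 40 probe sets downwards (0.352%) and 118 upwards (1.04%). Probe sets lower in every pair by this margin were thus counted in similar numbers with and without VND7.

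**Figure D1:**
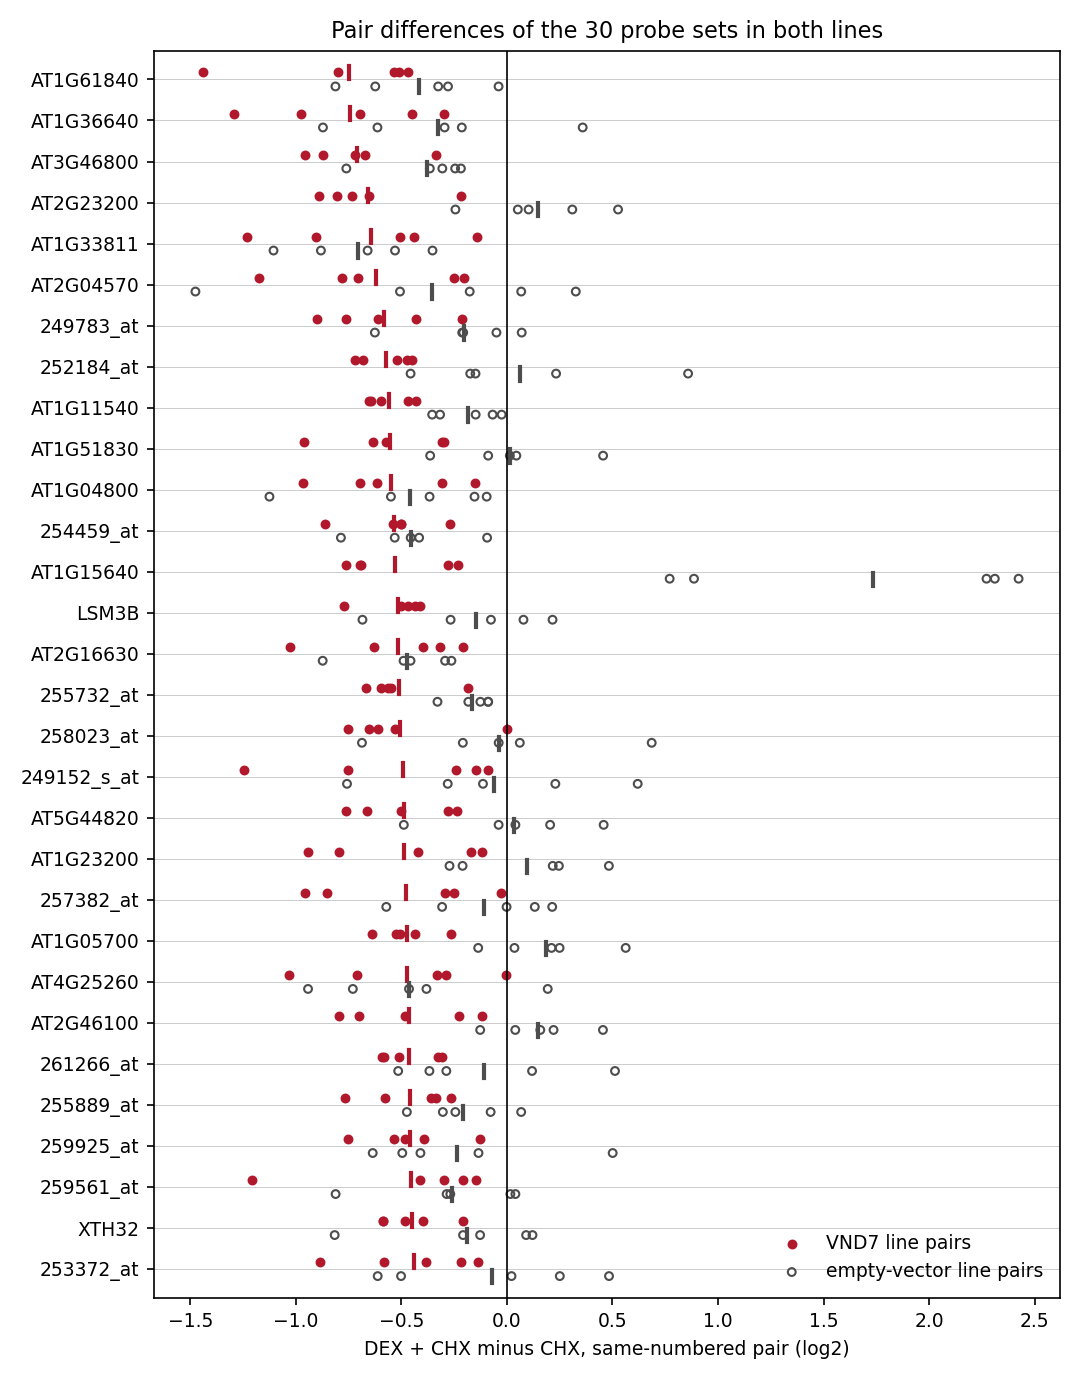
Differences between DEX and CHX arrays of the same replicate number, in log2, for the 30 probe sets in order of their VND7 mean. Filled points are the 5 VND7 pairs, open points the 5 empty-vector pairs, and short vertical bars the means. VND7 points all lie below 0 because the members were chosen so, whereas the empty-vector points lie on both sides of 0 for most members and far to the right for AT1G15640 (mean 1.73).

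To see whether such differences recurred, the conditions were applied to 4 VND7 pairs at a time and the chosen probe sets were read in the pair left out. Choosing without pair 1 gave 62 probe sets, with a median of -0.53 in the 4 pairs and -0.07 in pair 1, where 58.1% of them were below 0, against 54.1% of all probe sets above the level limit. Without pair 3 there were 59, with a median of -0.06 in that pair and 54.2% below 0, against 60.5% of all. The left-out medians were near those of all probe sets (-0.03 and -0.09), but for pair 3 this depended on the scaling: with a pseudocount at the 30th percentile the 31 chosen had a median of -0.21 there, against -0.08 for all. Without pair 4 the 81 chosen had a median of -0.05 there (59.3% below 0, against 46.0% of all), and without pair 5 the 76 chosen had -0.01 (51.3%, against 46.1%). Pair 2 stood apart: the 51 chosen without it had a median of -0.31 in it, and 88.2% were below 0, against 59.0% of all. On the deposited values, therefore, most of the difference of the choosing pairs was not seen in the left-out pair for 4 of the 5 pairs. Each left-out pair entered the choice through the mean level alone. The sets chosen on 4 pairs are not the 30 members, of which they held 24 to 28. The 30 themselves were chosen on all 5 pairs and could not be read in this way. The median of the members in each pair that chose them was between -0.62 and -0.44.

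**Figure D2:**
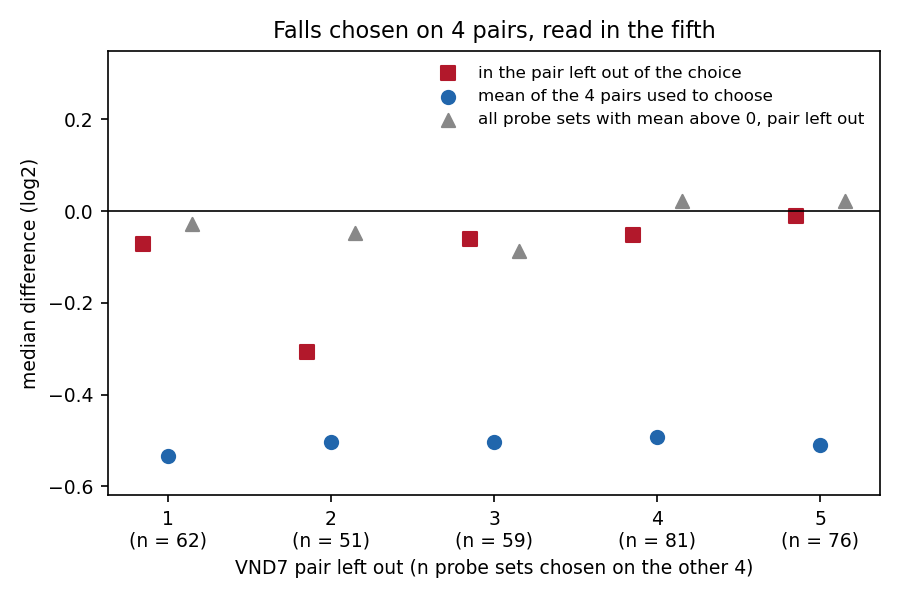
Median log2 difference of probe sets chosen on 4 VND7 pairs, plotted for each pair left out. Squares are the medians in the left-out pair, circles the medians over the 4 pairs used, and triangles the medians of all 11367 probe sets above the level limit in the left-out pair. Circles lie near -0.5 throughout, while the squares lie between -0.07 and -0.01 except for pair 2, at -0.31.

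The members were also more variable than probe sets in general, in arrays that entered the choice through the mean level alone. Over the 5 DEX arrays of the empty-vector line the median SD of the members was 0.42 in log2, and over its 5 CHX arrays 0.40. Over all probe sets above the level limit the medians were 0.25 and 0.27. The members were not matched to these on level, with a median signal of 346 against 559. The part of the level, or of the limit on the mean difference, in the larger spread was not tested. The DEX and CHX arrays of the VND7 line overlapped for 28 of the 30. The exceptions were AT1G15640 and the unnamed 255732_at, of which the second alone was also apart in undivided signal. A complete separation downwards was found for 0.123% of all probe sets above the level limit. The same VND7 arrays chose the members for lower values, so a higher share among the members was favoured in advance. Replicate 1 held the lowest or the highest value in all 4 groups for 8 members (26.7%), among them AT3G46800, AT2G23200, AT1G11540, AT1G05700 and XTH32, which compares with 19.1% of all probe sets above the level limit.

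The empty-vector pairs had no part in the choice beyond the mean level, and they are where the members could be tested. Across the 30 the median empty-vector difference was -0.17 in log2, beside -0.01 for all probe sets above the level limit, and 22 of 30 means were below 0 (73.3%, beside 53.6% of all). In 8 members (26.7%) all 5 empty-vector pairs were below 0, as in 5.56% of all. The full conditions were met in the empty-vector line by 4 members (13.3%, beside 0.352%): AT1G33811, AT1G04800, AT2G16630 and the unnamed 254459_at. With the pseudocount AT1G33811 alone of the 30 met them (3.33%, beside 0.106%), and with the level limit at 1 it was 1 of 8 members (beside 0.19%). With limma, over all 20 arrays and adjusted over all 22746 probe sets, 1 member rose and 0 were called lower, beside 0.281% and 0.0% of all probe sets. At an unadjusted p under 0.05, 5 members were lower (0.792% of all above the level limit were) and 1 was higher (1.59% were). Fitted with the replicate number as a block, 2 members were called lower and 1 higher, beside 0.0528% and 0.659% of all probe sets. With the empty-vector arrays alone and the block, 1 was called lower and 1 higher, beside 0.0352% and 0.589%. These shares include dim probe sets that could not be members. Of the 11367 above the level limit, 0 were called lower and 28 higher without the block. With the block 12 were lower and 80 higher, and with the empty-vector arrays alone and the block 8 and 73. A difference that did not pass is not thereby shown to be absent.

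**Figure D3:**
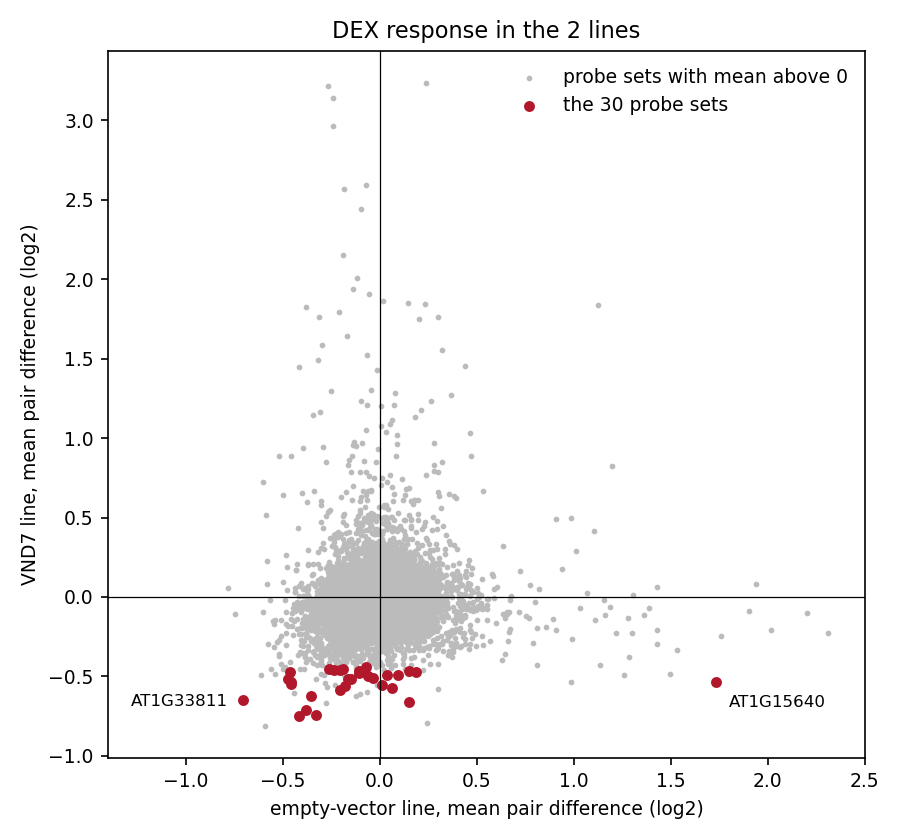
Mean pair difference in log2 in the VND7 line (vertical axis) and in the empty-vector line (horizontal axis) for the 11367 probe sets above the level limit, with the 30 members as large points. Members sit in a band below -0.43 vertically by choice, spread horizontally between -0.71 for AT1G33811 and 0.18, except for AT1G15640 at 1.73.

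AT1G15640 differed in opposite directions in the 2 lines, and it was the only member to pass the test in the empty-vector line without the block. In the VND7 line its signal was 135.5, 176.5, 155.4, 168.7 and 171.7 in the DEX arrays of replicates 1 to 5, against 211.4, 277.6, 175.1, 205.4 and 298.7 in the CHX arrays. After division by the array medians all 5 DEX arrays lay below all 5 CHX arrays there, whereas in undivided signal the highest DEX array (176.5) was just above the lowest CHX array (175.1). On the empty-vector arrays the signal was 431.7, 534.3, 610.4, 1040.3 and 1265.4 in the DEX arrays, against 265.8, 282.5, 119.4, 192.7 and 261.5 in the CHX arrays. Here every DEX array lay above every CHX array, a separation found upwards for 0.651% of all probe sets above the level limit and downwards for 0.176%. The transcript rose 3.32-fold in the empty-vector line (log2 change 1.73 ± 0.26, SE, n = 5, higher in 5 of 5 pairs, limma adjusted p = 0.001317, and 5.784e-05 with the block). Under all alternatives run its limma adjusted p stayed between 5.784e-05 and 0.04374. Replicates 3, 4 and 5 gave the larger rises, 2.27 to 2.42 in log2, and replicates 1 and 2 gave 0.77 and 0.89. The VND7 difference was -0.53 ± 0.25 (SD over 5 pairs). Without DEX the lines were at similar levels, 234 ± 52.2 in the VND7 line and 224 ± 68 in the empty-vector line (SD, n = 5 each). No role is given here for its product.

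Among the members whose products belong to the cell wall or cuticle, several had empty-vector differences close in size to those that chose them. There are 7 such members by background knowledge of their families, grouped after the members were known. Their median difference was -0.52 in the VND7 line and -0.46 in the empty-vector line. Of the 7 empty-vector means 6 were below 0 (85.7%, beside 53.6% of all probe sets above the level limit). The group's medians in pairs 1 to 5 were -0.25, -0.44, -1.03, -0.51 and -0.70 with VND7. With the empty vector they were -0.18, -0.21, -0.87, -0.51 and -0.15, so replicate 3 gave the largest difference in both lines. GDSL esterases and lipases, a large family that acts on ester bonds and includes makers of the cuticle, were represented by AT1G33811 and AT2G04570. AT1G33811 had the highest level of the group. Its signal was 483.2, 777, 501.8, 544.3 and 426.4 in the DEX arrays of the VND7 line, against 513.6, 1025.6, 1094.8, 800.1 and 819.6 in its CHX arrays, replicates 1 to 5. The empty-vector values were 544.3, 868.1, 587.3, 470.8 and 544.1 in the DEX arrays, against 730.3, 1225.4, 1227.9, 862.5 and 858.5 in the CHX arrays. Every pair of both lines was lower with DEX, though the DEX and CHX groups overlapped in each line. The empty-vector change was -0.71 ± 0.24 in log2 (SE, n = 5), against -0.64 in the VND7 pairs. It did not pass with limma without the block (adjusted p = 0.7532) and passed with it (adjusted p = 0.004012, or 0.008248 when only the empty-vector arrays were fitted with the block). Its adjusted p ranged from 0.004012 to 1 over the alternatives.

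AT2G16630, of the pollen Ole e 1 and extensin family of proline-rich wall proteins, had similar differences in both lines. It stood at 180.2, 280.3, 197.3, 173.4 and 169.4 in the DEX arrays and 228.2, 315, 374.4, 277.8 and 216.4 in the CHX arrays of the VND7 line. Values of 234.9, 295.2, 195, 179.5 and 192.5 in the DEX arrays and 296.2, 353.5, 346.9, 250.7 and 263.8 in the CHX arrays were found in the empty-vector line. Again every pair was lower with DEX in both lines while the groups overlapped, and the largest difference came from replicate 3 in each line (-1.03 with VND7 and -0.87 with the empty vector). The empty-vector change was -0.48 ± 0.21 (SE) and did not pass (limma adjusted p = 1, and 0.1153 with the block).

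The glycine-rich protein gene AT1G04800 differed between the lines more than with DEX. Its signal averaged 205 ± 35.6 in the DEX arrays and 297 ± 63.9 in the CHX arrays of the VND7 line, against 359.9 ± 78.7 in the DEX arrays and 486 ± 57.7 in the CHX arrays of the empty-vector line (SD, n = 5). Per array it was 183.8, 257.3, 182.5, 225.8 and 174.1 in the DEX arrays of the VND7 line, against 218.7, 383.7, 331.8, 259.4 and 289.5 in its CHX arrays. The empty-vector line had 250.4, 445.8, 407.9, 310.5 and 385.1 with DEX, against 574, 465.7, 510.8, 452 and 427.7 with CHX alone. Between the lines the log2 difference was -0.80 with DEX and -0.71 without, the lowest of the 30 without DEX; both contrasts use the arrays that chose the member, so neither was tested. Its empty-vector change was -0.46 ± 0.19 (SE, below 0 in 5 of 5 pairs, limma adjusted p = 1, 0.1943 with the block), and replicate 1 gave the lowest difference, -1.13.

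AT4G25260, a member of the inhibitor family that binds invertases or pectin methylesterases, had nearly equal differences in the 2 lines, -0.47 with VND7 and -0.47 ± 0.21 with the empty vector (SE). Its pairs with VND7 were -0.01, -0.29, -1.03, -0.33 and -0.71, so that replicate 1 barely met the condition of being below 0. The empty-vector pairs were 0.19, -0.38, -0.94, -0.73 and -0.46, and replicate 1 was the exception there too. The change did not pass (limma adjusted p = 1, 0.3853 with the block).

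For the other 3 members of the wall group the empty-vector pairs lay on both sides of 0. AT1G23200, of the pectin methylesterase family that removes methyl groups from pectin, differed by -0.49 with VND7 and 0.09 with the empty vector. XTH32, a xyloglucan endotransglucosylase/hydrolase that cuts and rejoins xyloglucan chains, differed by -0.45 with VND7 and -0.19 with the empty vector, and its empty-vector pairs ran from -0.82 to 0.12. AT2G04570, the other GDSL gene, differed by -0.62 with VND7 and -0.35 with the empty vector, where its pairs ran from -1.48 to 0.33. None of the 3 passed in the empty-vector line (limma adjusted p = 1 for each without the block, and 0.9349, 0.8242 and 0.6676 with it, in the order given).

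Other XTH genes were read beside XTH32, a family taken by symbol after the members were known. Of 9 XTH probe sets with a gene name, XTH32 was the only one to meet the conditions, and 5 others were above the level limit. All 5 had mean differences below 0 in the VND7 line, from -0.41 for XTH33 to -0.03 for XTH18, and all 5 were below 0 in the empty-vector line too, from -0.33 for XTH19 to -0.01 for XTH20. Among all probe sets above the level limit, 60.5% had a mean below 0 in the VND7 line and 53.6% in the empty-vector line.

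Receptor-like kinases, membrane proteins that carry an outer sensing domain and an inner kinase, made up 3 members, grouped after the members were known. The empty-vector means of all 3 were above 0, as were those of 5270 of the 11367 probe sets above the level limit. AT2G23200 belongs to the CrRLK1L family, whose best known member, FER, senses the state of the cell wall. Its signal was 254.5, 119.3, 122.4, 136.4 and 207.9 in the DEX arrays of the VND7 line, against 407.4, 215, 198.8, 222.4 and 248.5 in its CHX arrays. For the empty-vector line it was 345.3, 184.5, 256.9, 303.6 and 178.6 in the DEX arrays, against 337.9, 174, 201.3, 209.6 and 211.2 in the CHX arrays. Replicate 1 was the highest array of every group, and in replicate 1 the VND7 line had 254.5 with DEX, more than in all but 1 of the 5 CHX arrays of that line. Within pairs the VND7 difference was -0.66 ± 0.26 (SD over 5 pairs), and the empty-vector change was 0.15 ± 0.24 (SE, limma adjusted p = 1), above 0 in 4 of 5 pairs.

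The leucine-rich repeat kinase AT1G51830 differed by -0.56 ± 0.27 in the VND7 pairs (SD) and by 0.01 ± 0.17 in the empty-vector line (SE). Its DEX signal in the VND7 line was 241.7, 201.4, 389.2, 299.3 and 259.2, against 361.7, 382.3, 447.7, 380.5 and 396.4 with CHX alone. With DEX the empty-vector line had 265.2, 293.9, 493.5, 306.8 and 316.8, against 358.6, 278.5, 349.5, 324.5 and 313.3 with CHX alone, and replicate 3 with DEX was above all the other arrays of that line. The groups overlapped in both lines. AT1G05700, another kinase of this type, differed by -0.48 ± 0.14 in the VND7 pairs (SD) and by 0.18 ± 0.34 in the empty-vector line (SE, or 0.09 with the block). Its replicates differed more than its treatments: replicates 4 and 5 were the highest arrays of every group, at 682 and 664.3 with DEX and 954 and 983 without in the VND7 line, while replicate 1 was the lowest, at 238.4 with DEX and 356.9 without. Differences within pairs were steadier, from -0.64 to -0.27. Neither gene passed in the empty-vector line (limma adjusted p = 1 for both, and 0.9857 and 0.6086 with the block).

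For the 11 other CrRLK1L probe sets with a gene name, 4 were above the level limit. Their VND7 differences ran from -0.15 for AT5G39020 to -0.05 for FER, well short of the limit for members, and their empty-vector differences from 0.01 for THE1 to 0.24 for AT5G39020.

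The largest mean differences of all belonged in part to a pair of cysteine- and histidine-rich C1 domain proteins, a plant family whose zinc-binding domain resembles the lipid-binding C1 domain of animal protein kinase C. AT1G61840 was lower by 40.6% with DEX in the VND7 line. Its signal was 116.1, 257.8, 214.8, 211.1 and 122 in the DEX arrays, against 154.5, 357.2, 347.5, 316.2 and 340.4 in the CHX arrays of that line. With the empty vector it was 171, 178.2, 238.6, 274.7 and 279.7 with DEX, against 315.6, 268.4, 238.2, 342.4 and 338.9 with CHX alone. Replicate 5 gave the largest VND7 difference, -1.44, and replicate 1 the lowest level with CHX alone, so that the groups overlapped. AT3G46800, the other C1 gene, differed by -0.71 ± 0.24 in the VND7 pairs (SD). Its pair values were -0.87, -0.72, -0.34, -0.67 and -0.96 with VND7 and -0.76, -0.31, -0.22, -0.25 and -0.37 with the empty vector, below 0 in all 10. Levels of this gene set the replicates apart in every group, with replicate 1 the lowest (104.7 with DEX and 184.3 without in the VND7 line) and replicate 3 the highest (472.9 and 555.5). The empty-vector changes of the 2 C1 genes were -0.42 ± 0.25 and -0.38 ± 0.39 (SE, or 0.20 and 0.11 with the block). Neither passed (limma adjusted p = 1 for both, and 0.5981 and 0.2098 with the block).

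The remaining named members have unrelated products. AT1G36640, for which no role is given here, was lower by 40.2% with DEX in the VND7 line, with pairs from -1.29 to -0.30, and its empty-vector change was -0.33 ± 0.19 (SE). AT1G11540, of the TauE/SafE family named for bacterial sulfite exporters, had the steadiest difference in the VND7 pairs, -0.56 ± 0.10 (SD), and its empty-vector pairs were -0.32, -0.15, -0.35, -0.03 and -0.07. Thus all 10 of its pairs were below 0, but its empty-vector change of -0.18 ± 0.34 (SE, or 0.12 with the block) did not pass (limma adjusted p = 1, 0.7608 with the block). LSM3B, a subunit of the LSM rings that act in mRNA decapping and in U6 RNA stability, stood at 426.4, 459.2, 533.5, 358.1 and 293.3 in the DEX arrays of the VND7 line, against 555, 633.7, 685.9, 492.5 and 513.9 in its CHX arrays. The groups overlapped, though its VND7 pairs ran from -0.77 to -0.41, while its empty-vector pairs ran from -0.68 to 0.22. The close copy LSM3A differed by -0.04 with VND7, and over the 5 other LSM genes named on the array the VND7 differences ran from -0.07 to 0.04, all closer to 0 than that of LSM3B in these pairs. That difference between LSM3B and the rest was not tested, since LSM3B was chosen by it.

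AT5G44820, of a family of nucleotide-diphospho-sugar transferases, was the only named member with another probe set. The member differed by -0.49 with VND7 and 0.03 with the empty vector. The other probe set differed by -0.42 with VND7, below 0 in 4 of 5 pairs, and by -0.05 with the empty vector, so that both were lower in the VND7 line by a similar amount. AT2G46100, of the nuclear transport factor 2 family, differed by -0.47 with VND7 and 0.15 ± 0.18 with the empty vector (SE), where 4 of 5 pairs were above 0. None of the genes in this paragraph or the one before it passed in the empty-vector line.

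The 12 unnamed probe sets differed by -0.58 to -0.44 in the VND7 line, with a median of -0.49. In the empty-vector line they ran from -0.46 to 0.06, with a median of -0.14, and 11 of 12 means were below 0 (91.7%, beside 53.6% of all probe sets above the level limit). The lowest there was 254459_at, below 0 in all 5 empty-vector pairs, at 329.8 ± 61.3 with DEX and 468 ± 65.5 without in the VND7 line, against 272 ± 25.7 with DEX and 378 ± 77.8 without in the empty-vector line (SD, n = 5). It was the other member called lower with the block (limma adjusted p = 0.03021), but it did not pass without the block (1) or with the empty-vector arrays alone and the block (0.157). By its suffix, 1 of the 12 probe sets may hybridise with transcripts of several related genes.

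**Figure D4:**
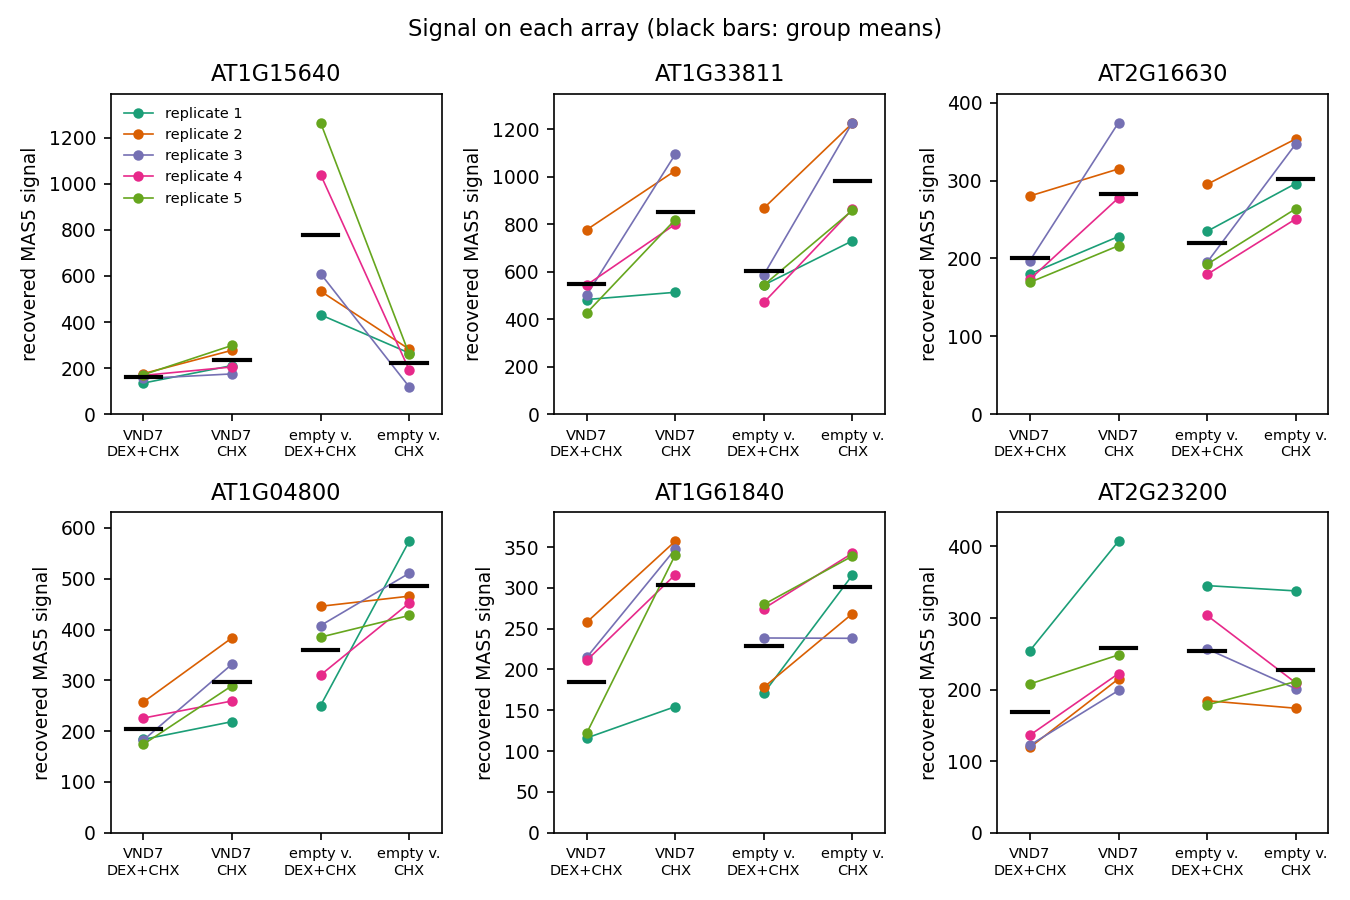
Recovered MAS5 signal of 6 members on each of the 20 arrays, by group, with lines joining DEX and CHX arrays of the same line and replicate number and black bars at group means. AT1G15640 is the member with DEX arrays above CHX arrays in the empty-vector line (776 ± 358 against 224 ± 68, SD), whereas the means of AT1G33811, AT2G16630, AT1G04800 and AT1G61840 are lower with DEX in both lines and the mean of AT2G23200 is lower with DEX in the VND7 line and higher in the empty-vector line (254 ± 73 against 227 ± 63.9).

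Set side by side, the levels in the 4 groups placed the VND7 line with DEX at the bottom. For 29 of the 30 members it had the lowest group mean, the exception being 254459_at. With DEX the VND7 line lay below the empty-vector line by a median of -0.37 in log2, and without DEX the 2 lines differed by a median of 0.01, with 15 members higher and 15 lower in the VND7 line. The highest group mean was that of the CHX arrays of the VND7 line for 12 members, of the DEX arrays of the empty-vector line for 4 and of its CHX arrays for 14. These contrasts share the VND7 arrays that chose the members, so they describe the members and were not tested.

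The lists of hormone, stress, nutrient, clock, cell cycle and reference genes read beside the members shared 0 genes with them, but few could have been shared. Only 12 of the list genes had a named probe set above the level limit, and 12 of the 30 members carry no name here. The 0 is therefore not a result about the members. Of 139 genes in 12 lists 20 had a named probe set, and with limma 0 passed in the VND7 line, with or without the block. In the empty-vector line 1 passed, LBD16, which auxin induces as lateral roots form. It rose by 1.65 in log2 (limma adjusted p = 0.0005457), though its mean level, -0.58 on the deposited scale, lay below the array median. At an unadjusted p under 0.05 the 20 genes gave 0 in the VND7 line and 1 in the empty-vector line, LBD16 again. Of 46 cell type markers 8 had a named probe set, and 0 passed in either line (at an unadjusted p under 0.05, 0 in the VND7 line and 0 in the empty-vector line). The photosynthesis genes LHCB4.1 and RCA, as markers of green tissue, were far above the array median in these seedlings and differed with DEX by -0.08 and -0.12 in the VND7 line and by -0.08 and 0.01 in the empty-vector line. None of the phloem, endodermis or xylem vessel markers was among them, so those cell types could not be checked. The probe set matched to FDH, listed as an epidermal gene of cuticle formation, differed by 0.14 with VND7 and -0.19 with the empty vector. The match was by gene name alone, and whether this probe set reads the cuticle gene or another gene called FDH was not checked. The root hair expansins EXPA7 and EXPA18, below the array median, differed by 0.05 and -0.15 with VND7 and by -0.96 and -0.26 with the empty vector. The guard cell lineage regulators SPCH, MUTE and FAMA, all below the array median, differed by -0.48, -0.17 and -0.29 with VND7 and by -0.05, -0.45 and -0.09 with the empty vector, and the part of these markers in the members' differences was not tested.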

How the data were processed

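The study was an Affymetrix one-colour array series with 4 groups of 5 whole-seedling samples, grouped by their titles. Per the submitters' processing notes the authors used MAS5, in a version not given in the sources used here. The deposited values are natural log values of each array's signal over its median, which was worked out from the values: every column median is 0 and, after exponentiation, 100% of 13796 to 14327 values per array were whole multiples of a single step (tolerance 0.02 of a step, values under 3000 steps). Taking that step as 0.1 signal units gave the signals printed here. No pseudocount or filter on low values was used in the fits, and the number of unused columns was 0.

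Genes were assigned from the supplied platform table and RefSeq (TAIR10.1, names alone): 13436 of 22746 (59.1%) had 1 gene. Coordinates are left out because no source used here names the array's genome build. Keyword classes planned for the members rested on gene descriptions that the name tables used here lack (1 member matched), so roles come from background knowledge.

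The VND7 DEX response chose the members and was not tested for them. The empty-vector response was tested on log2 values with limma 3.58.1 (R 4.3.3), by lmFit followed by eBayes with trend, as DEX minus CHX group means over 20 arrays, with Benjamini-Hochberg adjustment over all 22746 probe sets and a threshold of 0.05, two-sided. All adjusted p-values are limma's. The fit was checked on simulated data with independent noise and with changes larger than those of most members. Deviations shared by same-numbered arrays, described below, were not simulated.

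Same-numbered arrays of different groups deviated together: over 11367 probe sets the correlation of deviations from group means was 0.558 to 0.835 in 30 pairs (probe sets are not independent of each other), above 0.1 in each. The numbers were therefore read as pairs, and the fit with the replicate number as a block is given beside the unblocked fit where it changes a call. Arrays of other numbers gave -0.698 to 0.779 in 120 pairs, with a median of -0.296, against a median of 0.746 for the same number. Some arrays of other numbers thus deviated together as well. The 5 pairs may therefore not be independent of each other, nor a left-out pair of those that chose. Alternatives were a block, the empty-vector arrays alone, no variance trend, no dim probe sets, quantile normalization, a pseudocount, other limits of the rule, and each array or pair left out. Named genes were the 14 members with the lowest VND7 differences, those passing in the empty-vector line, those with the 5 lowest and 5 highest empty-vector differences, up to 2 per keyword class and those nearest the limit, which covered all 18 named members. Members and lists were chosen with earlier results of these data known.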

Additional observations from a re-analysis of the deposited data

Results flagged for a closer look

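AT1G15640 differed in opposite directions in the 2 lines: all 5 VND7 pairs were below 0 (mean -0.53 in log2) and all 5 empty-vector pairs were above 0 (mean 1.733). The difference between the responses was not tested, since the VND7 pairs chose the member; the empty-vector rise on its own passed with limma (adjusted p = 0.001317).

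Single arrays stood far from the other 4 of their group, after division by the array medians, in 8 of 72 groups of 5 arrays of the named members (11.1%). Chance gives such a gap in about 1 in 20 independent groups, and all probe sets above the level limit had one in 5.23%; same-numbered arrays deviate together, so the 72 groups are not independent. Replicate 1 was the array in 7 of the 8, as it was in 59.3% of such gaps over all probe sets. AT1G61840 had 154.5 in replicate 1 of the VND7 line with CHX alone, against 316.2 to 357.2 in the others. AT2G23200 had 407.4 in replicate 1 of the VND7 line with CHX alone (others 198.8 to 248.5) and 337.9 in replicate 1 of the empty-vector line with CHX alone (others 174 to 211.2). AT1G11540 was low in replicate 1 of 3 groups, at 155.4 in the VND7 line with CHX alone (others 319.9 to 498.5), 136 in the empty-vector line with DEX (others 250.1 to 311.2) and 178 in the empty-vector line with CHX alone (others 270.9 to 344.8). AT4G25260 had 185.1 in replicate 1 of the empty-vector line with CHX alone, against 302.4 to 332.8. The exception was AT1G51830, with 493.5 in replicate 3 of the empty-vector line with DEX, against 265.2 to 316.8.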

How the results depend on the processing

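The membership itself moved most. It held 135 probe sets with a mean limit of -0.2 and 2 with -0.5, 250 with no limit on the level and 8 with the level limit at 1. With a pseudocount at the 30th percentile 17 of the 30 remained and no other was added, and with quantile normalization there were 33, of which 28 were shared. On 4 pairs it held 51 to 81, of which 24 to 28 were among the 30. The members' median VND7 difference was -0.45 with the pseudocount and -0.75 with the -0.5 limit, where the empty-vector median was -0.37. Members meeting the conditions in the empty-vector line numbered 1 with the pseudocount, 1 of 8 with the higher level limit, 0 of 2 with the -0.5 limit, and 3 to 5 without any 1 pair. Members called in the empty-vector line numbered 3 with the replicate block and 2 with the block on empty-vector arrays alone (an alternative chosen after seeing the data), against 1 otherwise, and all called probe sets numbered 162 and 142, against 64 in the unblocked fit and 52 to 65 without any 1 array. Both blocked fits called AT1G33811 lower; the block changed no other named member's call. Leaving out single arrays turned the sign of 5 uncalled empty-vector changes: AT1G11540 (-0.363 to 0.03138), AT1G51830 (-0.1396 to 0.08872), LSM3B (-0.26 to 0.003423), AT5G44820 (-0.16 to 0.23) and AT1G23200 (-0.07105 to 0.2181). The other 13 named members kept the sign of their empty-vector change in each fit run. Quantile normalization and the pseudocount, both chosen for this result after seeing the data, left the median over left-out pairs at -0.08 and -0.07, against -0.06, but single pairs moved more: pair 3 to -0.21 with the pseudocount (-0.08 for all probe sets, against -0.06 and -0.09 on the deposited values) and pair 4 to -0.10 with quantile normalization (-0.02 for all, against -0.05 and 0.02). Why these values moved was not tested.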

Other observations

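Of the 18 named members 10 (55.6%) have loci on chromosome 1, while 26.0% of the 5938 named probe sets above the level limit do; the 12 unnamed members could not be placed. In 8 of 30 members all 5 empty-vector pairs were below 0 (26.7%, beside 5.56% of all probe sets above the level limit); those pairs entered the choice through the mean level alone. In undivided signal 7 of the 30 were lower in all 5, AT1G61840 being level in replicate 3. AT1G61840, AT3G46800, AT1G33811, AT1G11540, AT1G04800 and AT2G16630 are the 6 named among them, and their differences with VND7 were -0.75, -0.71, -0.64, -0.56, -0.55 and -0.52 in log2, against -0.42, -0.38, -0.71, -0.18, -0.46 and -0.48 with the empty vector. These 6 were singled out after their values were seen.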
